A study of Mus musculus with 8 samples.

Results

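The TGF-beta and BMP system of tumour macrophages was followed here as 49 genes: ligands, latent binding proteins, activin chains, receptors, co-receptors, SMADs, extracellular antagonists and the BMP target genes Id1 and Id3. They were chosen by name, and 45 of the 49 had a probe bright enough to be tested, among 27999 genes tested in all. The samples were macrophages sorted by flow cytometry from pancreas tumours that had been implanted in mice, 4 with high and 4 with low surface MHC class II, by which helper T cells are shown peptides. Both groups came from female FvBn mice aged 8 to 10 weeks. The labels leave the genotype open, and the design text speaks of wild-type, KPC and FLT3-CRE/LSL-YFP animals and of normal and tumour tissue without tying a sample to any of them. The implanted cells, the number of animals behind a sample and sort gates other than MHC class II are not stated there. The numbers 20435, 20436, 20439 and 20442 occur once in each group and name the arrays below. No label says that arrays of a group stand for separate animals, so the p-values speak of the spread from sample to sample only, and that spread may be technical.

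TGF-beta family ligands are secreted dimers that bring together type I and type II serine/threonine kinase receptors, and the type I receptor then phosphorylates receptor-regulated SMADs, which join SMAD4 and act in the nucleus. TGF-beta itself is secreted in a latent complex, tethered to matrix by latent binding proteins or to the cell surface, and must be released before it can signal. BMPs use another set of receptors and SMADs and are held in check by secreted antagonists such as noggin. In macrophages TGF-beta is known to restrain inflammatory activation and to support several tissue-resident identities, and BMP6 is known for its control of iron balance through hepcidin.

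Signals are log2 processed intensities of 1-colour arrays, each expressed relative to the 75th percentile of its own array, and differences are MHCII-high minus MHCII-low on that log2 scale. Per array, 38756 to 42087 of 56605 probes were well above background. The macrophage label was read from 14 markers, all of which passed the filter on dim probes. Their summed linear signal was 324 to 438 in MHCII-high and 427 to 577 in MHCII-low arrays. Of these 14, 1 was lower in MHCII-high and 0 higher, and 13 had differences below 0 (median -0.39). For 6 of the 14 (42.9%), all MHCII-high arrays lay below all MHCII-low arrays, against 7.14% of all genes tested. Summed signals of other cell types also moved with the groups. Dendritic cell markers (14 genes, 11 higher in MHCII-high) summed to 70.2 to 103 against 45.9 to 53.1. All 14 differences were above 0 (median 2.87). Serous-cavity macrophage markers (10 genes, 8 lower) summed to 51.4 to 61.7 against 107.1 to 135, with 9 differences below 0 (median -3.03). Over all genes tested, 2.62% were higher in MHCII-high and 2.3% lower. Platelet markers (8 genes, 1 lower, Pf4) summed to 12.8 to 14.9 against 25.3 to 41.7. The platelet markers had 4 differences above 0 and 4 below (median 0.014), so their sum and their median did not go the same way. Monocyte and neutrophil markers (11 genes, 1 higher) summed to 57.8 to 70.3 against 76.9 to 84.6, although 6 of the 11 had differences above 0 (median 0.12). Fibroblast markers (12 genes, 0 past the limma threshold and 2 with an unadjusted p under 0.05) summed to 52.9 to 109 against 74.0 to 128. These ranges overlapped, while 11 of the 12 had differences below 0 (median -0.79). Of 10 endothelial markers, Tek and Emcn were not well above background on any array, and 1 of the 8 tested, Cldn5, was higher in MHCII-high. Summed signals of epithelial, T and NK cell, B cell, and mast cell and eosinophil markers overlapped between the groups. Of 6 B cell markers 1 was higher in MHCII-high and 0 lower, with 4 differences above 0 (median 0.54). Of 13 epithelial markers tested 1, Cdh1, was higher in MHCII-high, and of 8 mast cell and eosinophil markers 2, Kit and Fcer1a, were higher and 1, Ccr3, was lower, with 7 differences above 0. The part of these cell types in the differences below was not tested, and in sorted bulk RNA fewer cells of a type cannot be told apart from less RNA per cell.

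Genes of the ligands BMP6, BMP2, GDF15 and TGF-beta3 were lower in the MHCII-high samples, and the gene of the BMP antagonist noggin was higher. Of the 45 genes tested with limma, 6 passed a Benjamini-Hochberg adjusted p of 0.05 taken over all genes (13.3%, where 4.92% of all genes tested passed). Together with the co-receptor gene Eng, 5 genes were lower in MHCII-high (11.1%, against 2.3% of all genes), and 1, Nog, was higher (2.22%, against 2.62%). Signals of the groups did not overlap for 13 genes, 3 with MHCII-high above and 10 with it below, where 14.4% of all genes tested did not overlap (7.25% above and 7.14% below). Differences were below 0 for 33 of the 45, with a median of -0.22 against -0.01 over all genes. Counts at an unadjusted p under 0.05 are descriptions only, because the share of all genes at that cut was not taken. The arrays lay in 2 rows of 1 slide, the first with 1 MHCII-high array beside 3 MHCII-low arrays and the other the reverse. With the row as a block in limma, Bmp6 and Nog passed and the other 4 did not. Inside either row 1 group is down to its lone array, so within-row values carry no test. Inha, Smad9, Fst and Grem1 were not well above background on any of the 8 arrays and got no fold or test.

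**Figure D1:**
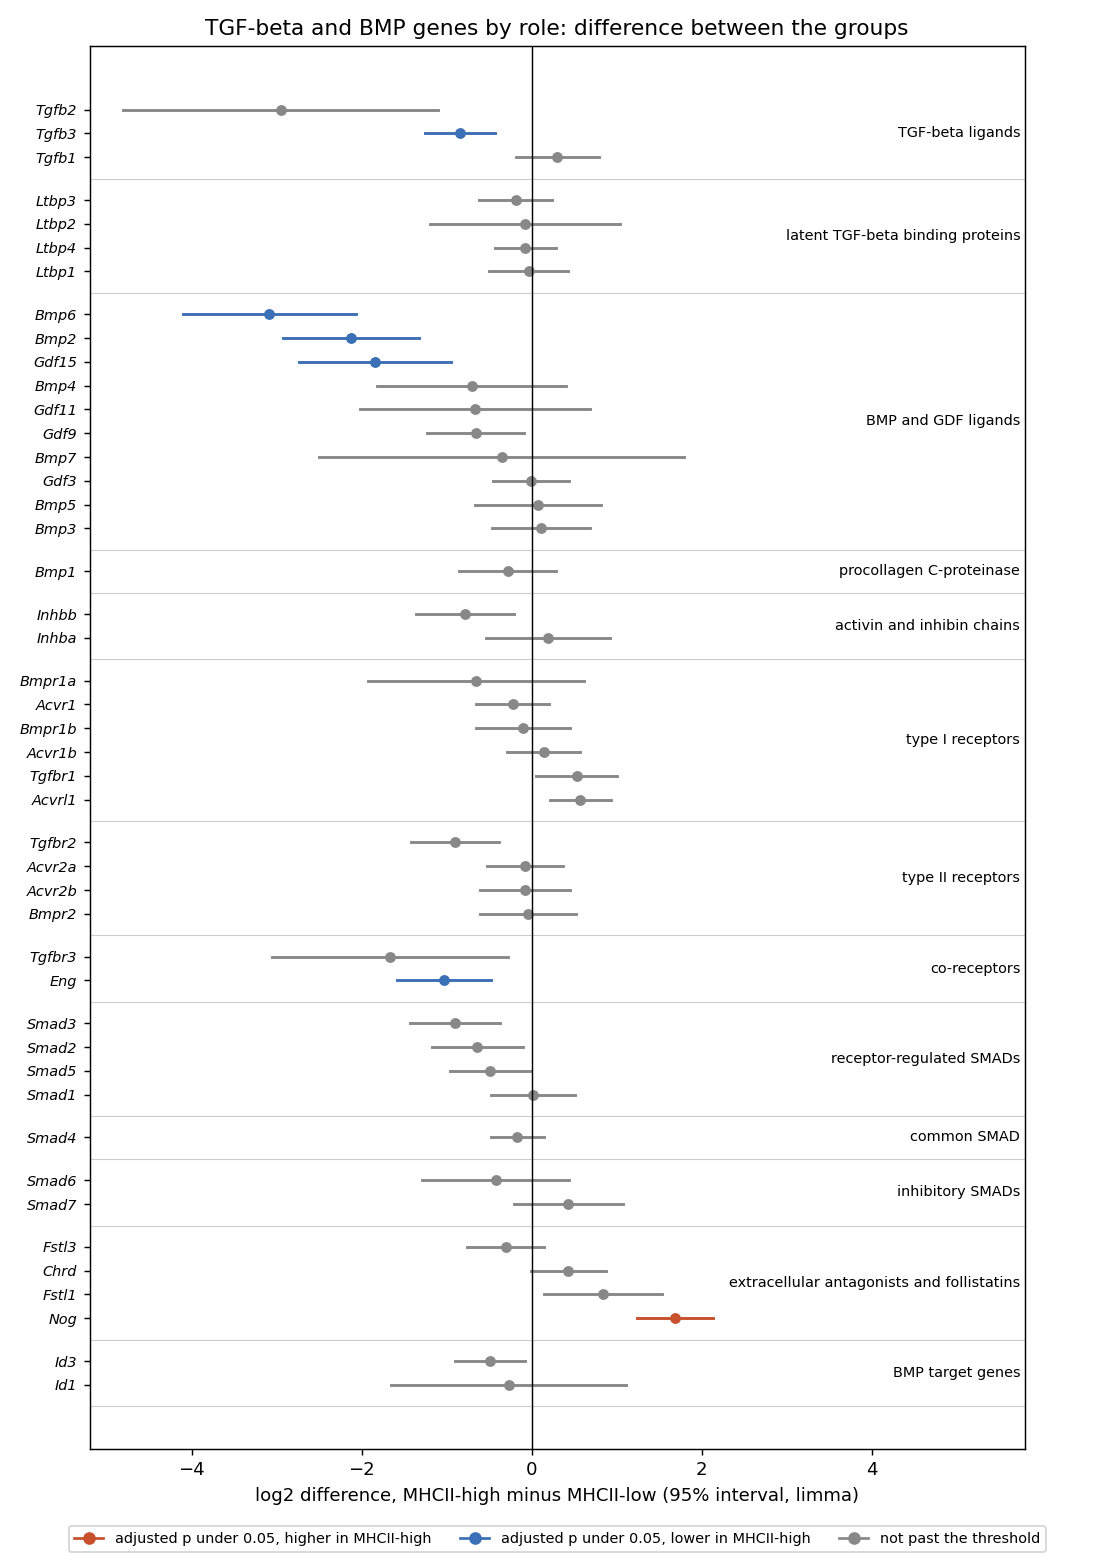
Each point is the log2 difference (MHCII-high minus MHCII-low) of 1 of the 45 genes tested, with the 95% interval from limma, 4 arrays per group, sorted within roles. Blue points (Tgfb3, Bmp6, Bmp2, Gdf15 and Eng) and the red point (Nog) passed an adjusted p of 0.05, and grey points did not. Most points lie left of 0. The Ltbp1 and Fstl1 points come from probes that name no RefSeq mRNA. The brightest RefSeq probes of these genes gave -3.94 and -0.91.

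Of the 3 TGF-beta ligand genes, Tgfb3 fell and Tgfb1 and Tgfb2 did not pass. Tgfb3, which encodes an isoform known from palate and wound development, read 1.14, 1.13, 1.0 and 0.57 on MHCII-high arrays 20435, 20436, 20439 and 20442, and 1.89, 1.71, 2.0 and 1.6 on the MHCII-low arrays in the same order. All MHCII-high arrays lay below all MHCII-low arrays. The means were 0.96 ± 0.27 (SD, n = 4) and 1.80 ± 0.18 (SD, n = 4), so that Tgfb3 was 1.79-fold lower in MHCII-high (95% interval 1.35 to 2.38, limma adjusted p = 0.0356). Its probe lies at chr12:87397804-87397863 on the minus strand of mm9. The Tgfb3 call was thin: it ended in each of the 8 fits that left out 1 array (adjusted p 0.0508 to 0.0981) and with the row as a block (difference -0.72, adjusted p = 0.137), while the difference within rows 1 and 2 was -0.74 and -0.69.

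Tgfb2, the isoform whose latent form lacks the integrin-binding RGD motif, showed a wide gap that did not pass. It read -7.09, -3.56, -2.81 and -4.19 on the MHCII-high arrays and -1.13, -1.14, -1.79 and -1.78 on the MHCII-low arrays, in the order given above. The groups did not overlap, and MHCII-high 20435 stood far below the rest, at a signal not well above background. The difference was -2.95 (SE 0.81, limma adjusted p = 0.0814). Without MHCII-high 20435 it was -2.06 and passed (adjusted p = 0.0232), and with normexp background correction it was -1.46 and passed (adjusted p = 0.0107). With the row as a block it was -2.56 (adjusted p = 0.247). A second Tgfb2 probe gave -2.63, with 2 MHCII-high arrays well above background.

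Tgfb1, the isoform of most immune cells, read 4.64, 4.34, 4.23 and 4.66 in MHCII-high and 3.96, 3.96, 4.03 and 4.71 in MHCII-low. The ranges overlapped through MHCII-low 20442, the highest of its group. The difference was 0.30 (95% interval -0.18 to 0.79, limma adjusted p = 0.479), and a second Tgfb1 probe gave 0.15. It was 0.36 within row 1 and -0.20 within row 2.

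Latent TGF-beta binding proteins, some of which fold with the TGF-beta propeptide and anchor the latent complex in matrix, were read by their brightest probe. Of these 4 genes, 0 passed the limma threshold and 0 had an unadjusted p under 0.05, with differences between -0.19 and -0.04. Ltbp3 read 1.44, 0.93, 1.35 and 1.02 in MHCII-high and 1.5, 0.99, 1.49 and 1.51 in MHCII-low. MHCII-low 20436 stood apart from its group, and the ranges overlapped. Ltbp2 gave -0.08 and Ltbp4 -0.07.

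Probes of Ltbp1 disagreed with each other. The brightest, at chr17:75748171-75748230 of mm9, names a cDNA clone and no RefSeq mRNA, whereas another, at chr17:75790530-75790589, names RefSeq mRNAs of Ltbp1. The first 30 of the 60 bases of each are printed here because the result turns on which of them stands for the gene, and both read the plus strand.
Ltbp1 clone probe: aaagatttcaagccccacaggatgggcaag
Ltbp1 RefSeq probe: ggaagtggaagagcttcatagagtttatta
The clone probe read -0.21, 0.40, 0.39 and 0.51 in MHCII-high and 0.34, 0.60, 0.24 and 0.06 in MHCII-low, a difference of -0.04 (limma adjusted p = 0.947). The RefSeq probe read -2.60, -1.37, -3.10 and -3.36 in MHCII-high and 1.03, 1.48, 1.56 and 1.24 in MHCII-low. The groups were separated on the second probe and intermixed on the first. In a limma fit of 41181 single probes, added after the data were seen and in which 2133 (5.18%) passed, the RefSeq probe of Ltbp1 was 15.3-fold lower in MHCII-high (95% interval 8.11 to 28.9, adjusted p = 0.00254). It passed there without any 1 array (8 of 8 fits) and with the row as a block (difference -3.50, adjusted p = 0.00984), and normexp gave -3.04. A further Ltbp1 probe, again without a RefSeq mRNA, gave -0.20.

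**Figure D2:**
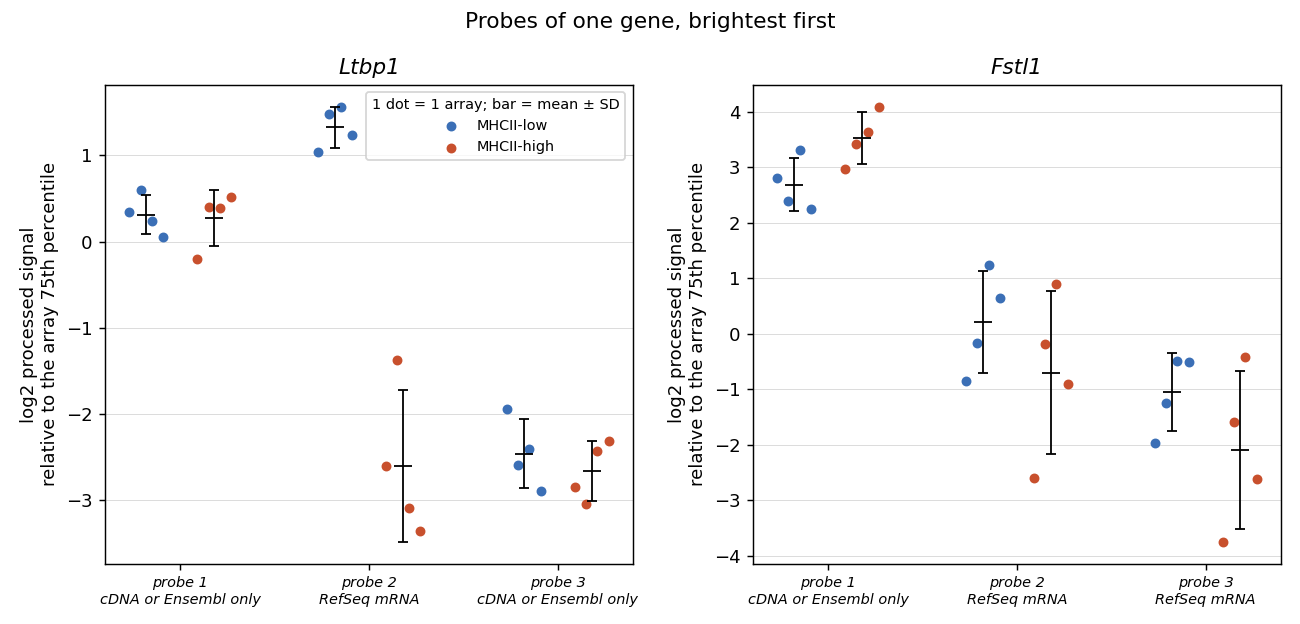
Log2 signals of the probes of Ltbp1 (left) and Fstl1 (right) that are well above background, brightest first, with 1 dot per array and bars for mean ± SD of 4 arrays. The Ltbp1 RefSeq probe is separated between the groups (1.03 to 1.56 in MHCII-low, -3.36 to -1.37 in MHCII-high), and the brightest Fstl1 probe lies the other way from the RefSeq probes of that gene.

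BMP and GDF ligand genes held 3 of the 6 calls. Of 10 tested, Bmp6, Bmp2 and Gdf15 fell and 0 rose, 8 had differences below 0, and the median was -0.66. Over all genes tested 2.3% fell and 51.2% had differences below 0. Bmp6 and Bmp2 were each read by 1 probe, named by RefSeq mRNAs, at chr13:38591479-38591538 and chr2:133388260-133388319 of mm9, both on the plus strand. The first 30 of their 60 bases are shown because both genes kept their calls in every fit that left out 1 array.
Bmp6: tgtctactgttgtagttacgtgttttgtgt
Bmp2: cccttccagggggctgatctggccaaagta

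Bmp6, the ligand through which iron load raises hepcidin in liver, read -3.40, -2.87, -4.32 and -4.80 in MHCII-high and -0.98, 0.018, -0.96 and -1.13 in MHCII-low. Every MHCII-high array lay below every MHCII-low array, and 3 of the 4 MHCII-high signals cleared the background. The means were -3.85 ± 0.88 (SD, n = 4) and -0.77 ± 0.53 (SD, n = 4), and Bmp6 was 8.48-fold lower in MHCII-high (95% interval 4.20 to 17.1, limma adjusted p = 0.00873). The size depended on the treatment of dim signals: normexp gave a difference of -1.65 in place of -3.08, with an adjusted p of 0.00127. With the row as a block it was -2.63 (adjusted p = 0.0351), and within rows 1 and 2 it was -2.23 and -3.04. Over the 8 fits that left out 1 array, the adjusted p was 0.008 to 0.0341.

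Bmp2, a ligand known for bone formation and, in gut, for signals from muscularis macrophages to neurons, read 0.65, 1.12, 0.44 and -0.63 in MHCII-high and 2.73, 2.43, 2.18 and 2.74 in MHCII-low. The groups did not overlap, with MHCII-high 20442 the lowest. The means were 0.39 ± 0.74 (SD, n = 4) and 2.52 ± 0.27 (SD, n = 4), a 4.37-fold lower signal in MHCII-high (95% interval 2.51 to 7.60, limma adjusted p = 0.0145). The call held in 8 of 8 fits without 1 array (adjusted p 0.0127 to 0.046) and ended with the row as a block, where the difference was -1.96 (adjusted p = 0.0707). Within rows 1 and 2 it was -1.33 and -2.59.

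Gdf15, a divergent family member that is secreted by stressed cells and acts on a hindbrain receptor, read -0.019, 0.43, -0.44 and 0.09 in MHCII-high and 0.69, 2.12, 2.02 and 2.60 in MHCII-low. The groups did not overlap, but MHCII-low 20435 lay close to the MHCII-high arrays. The means were 0.013 ± 0.36 (SD, n = 4) and 1.86 ± 0.82 (SD, n = 4), and Gdf15 was 3.59-fold lower in MHCII-high (95% interval 1.93 to 6.68, limma adjusted p = 0.0359). The Gdf15 call held in the fit without MHCII-low 20435 (adjusted p = 0.00895) and ended in the other 7 fits without 1 array (adjusted p up to 0.103), as it did with the row as a block (difference -1.95, adjusted p = 0.0981). Within rows 1 and 2 the difference was -1.18 and -2.72. The Gdf15 probe lies at chr8:73153293-73153352 of mm9 on the minus strand.

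The other BMP and GDF ligands did not pass. Gdf11, a close relative of myostatin, read 1.82, 1.37, 1.55 and 1.09 in MHCII-high and 2.31, 3.95, 0.89 and 1.35 in MHCII-low. The MHCII-low arrays spread on both sides of the MHCII-high ones, and the difference of -0.67 had a 95% interval of -2.02 to 0.69. Bmp4, which shares receptors with Bmp2, was at -0.71 (95% interval -1.82 to 0.41) and Gdf9, an oocyte factor, at -0.66 (limma adjusted p = 0.187). Bmp3, Bmp5 and Gdf3 lay between -0.0041 and 0.11. Bmp7 was well above background on 6 of 8 arrays, the fewest of any gene tested here, and its difference of -0.35 had an interval from -2.50 to 1.79.

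**Figure D3:**
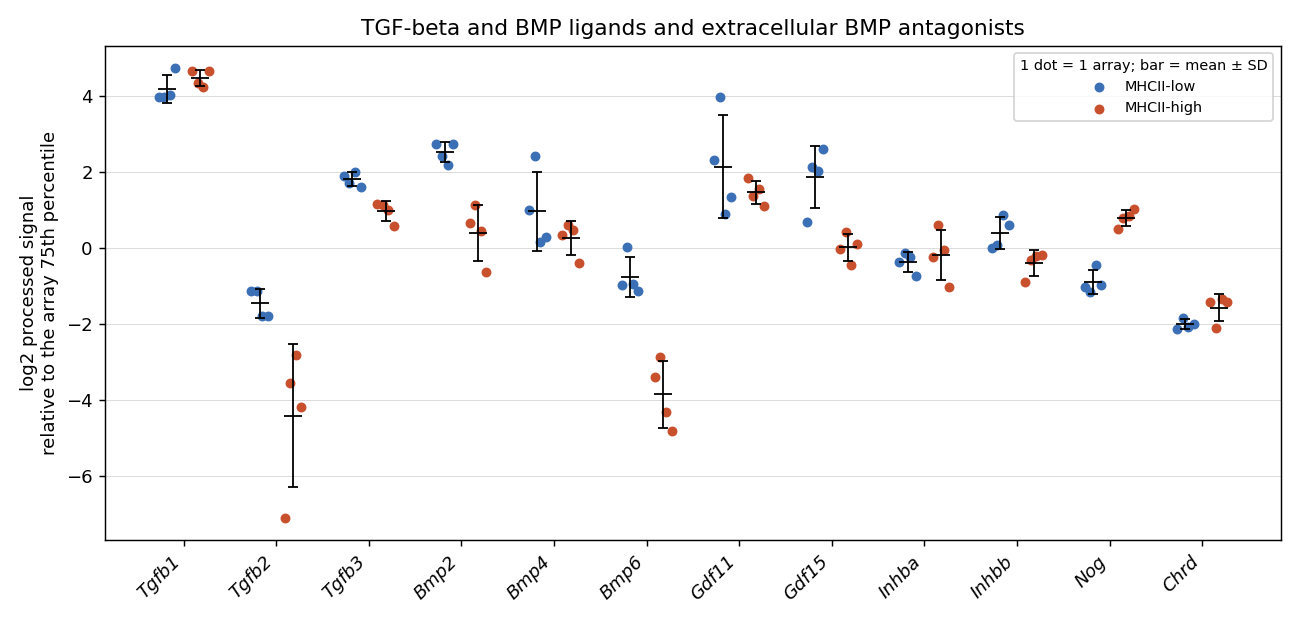
Log2 signal relative to the 75th percentile of the array for ligands, activin chains and the antagonists Nog and Chrd, 1 dot per array and bars for mean ± SD of 4 arrays. Blue (MHCII-low) lies above red (MHCII-high) without overlap for Tgfb2, Tgfb3, Bmp2, Bmp6, Gdf15 and Inhbb, and below it for Nog; levels of different genes come from different probes and are not comparable.

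Sequence upstream of the start site was taken from RefSeq (GRCm38.p6) for the lower genes with an entry, as 250 bases each. CAGAC, the core of the SMAD3 and SMAD4 binding element, was searched on both strands, its reverse complement being GTCTG. The GC-rich motif of BMP SMADs, GGCGCC, which reads the same on both strands and could share an end base with the former, was searched too. CAGAC stood once in Bmp6 (chr13:38345466-38345715, plus strand), once in Gdf15 (chr8:70632457-70632706, minus strand) and 2 times in Eng (chr2:32646345-32646594, plus strand), and GGCGCC in none of these windows. Matches are in capitals.
Bmp6 upstream: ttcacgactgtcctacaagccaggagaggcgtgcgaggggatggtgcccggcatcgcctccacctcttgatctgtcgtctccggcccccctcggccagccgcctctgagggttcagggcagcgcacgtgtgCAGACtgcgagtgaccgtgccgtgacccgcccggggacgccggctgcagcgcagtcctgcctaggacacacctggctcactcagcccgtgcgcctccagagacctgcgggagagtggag
Gdf15 upstream: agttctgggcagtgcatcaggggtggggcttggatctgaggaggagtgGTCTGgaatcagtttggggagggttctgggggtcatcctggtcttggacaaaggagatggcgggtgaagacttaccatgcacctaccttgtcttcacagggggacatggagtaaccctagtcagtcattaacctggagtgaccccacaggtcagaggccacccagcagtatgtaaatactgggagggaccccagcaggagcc
Eng upstream: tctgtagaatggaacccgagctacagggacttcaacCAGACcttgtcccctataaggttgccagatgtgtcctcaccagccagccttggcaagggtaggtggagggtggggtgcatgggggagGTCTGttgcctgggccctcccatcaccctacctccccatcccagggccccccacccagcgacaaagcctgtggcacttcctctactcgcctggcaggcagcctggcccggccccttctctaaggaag
Of 34 of the 49 genes with a window, 16 (47.1%) held CAGAC and 6 (17.6%) held GGCGCC, where 42.2% and 9.59% of 32851 windows of the same length did. Such matches describe letters and do not show binding.

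Activin chains (0 of 2 tested past the limma threshold, 1 with an unadjusted p under 0.05) and Bmp1 showed no call. Inhbb, the activin beta-B chain, read -0.89, -0.33, -0.21 and -0.18 in MHCII-high and -0.0028, 0.075, 0.87 and 0.61 in MHCII-low. Its groups did not overlap, at a difference of -0.79 (SE 0.25, limma adjusted p = 0.126). Inhba, the beta-A chain that macrophages make on activation, was at 0.19 (95% interval -0.54 to 0.92). Bmp1 is a metalloproteinase that trims procollagen and cleaves chordin, not a BMP ligand. It read 1.15, 1.49, 2.19 and 1.46 in MHCII-high and 1.52, 2.04, 2.14 and 1.71 in MHCII-low, with a difference of -0.28 (95% interval -0.85 to 0.29).

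Among receptors, the co-receptor gene Eng fell. Of 6 type I and 4 type II receptors tested with limma, 0 passed, with unadjusted p under 0.05 for 2 and 1 of them. Of the 2 co-receptors, 1 passed. Eng, endoglin, a co-receptor for BMP9 and TGF-beta on endothelium and activated macrophages, read 0.51, 0.59, -0.085 and 0.66 in MHCII-high and 1.92, 1.47, 1.01 and 1.39 in MHCII-low. The groups did not overlap, with means of 0.42 ± 0.34 (SD, n = 4) and 1.45 ± 0.37 (SD, n = 4). Eng was 2.04-fold lower in MHCII-high (95% interval 1.39 to 2.99) at a limma adjusted p of 0.0497, just inside the threshold. Its probe lies at chr2:32537268-32537327 of mm9 on the plus strand. The call ended in each of the 8 fits without 1 array (adjusted p 0.0505 to 0.117), with quantile normalization (0.0501), when no filter on dim probes was used (0.0705) and with the row as a block (difference -0.95, adjusted p = 0.166). Within rows 1 and 2 the difference was -0.88 and -1.03. The summed endothelial signal was 4.13 to 4.88 in MHCII-high and 3.27 to 4.20 in MHCII-low and overlapped, while 6 of the 8 endothelial markers tested had differences below 0 (median -0.29). The part of endothelial cells in the difference of Eng was not tested.

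Tgfbr3, betaglycan, which presents TGF-beta2 to the signalling receptors, read -2.70, -0.78, -0.49 and -2.96 in MHCII-high and -0.87, -0.23, 0.41 and 0.45 in MHCII-low. MHCII-high fell into a pair of low and a pair of higher arrays, and the higher pair overlapped MHCII-low. The difference of -1.67 had an SE of 0.61 and did not pass (limma adjusted p = 0.171). Tgfbr2, the type II receptor of TGF-beta, ranged from 0.54 to 1.32 in MHCII-high and from 1.58 to 2.10 in MHCII-low without overlap, a difference of -0.90 (SE 0.23, limma adjusted p = 0.0641). It passed with normexp (adjusted p = 0.0447) and with a filter on all 8 arrays. Bmpr2, the type II receptor of BMPs, read 5.59, 5.57, 5.55 and 6.26 in MHCII-high and 5.64, 5.73, 5.44 and 6.32 in MHCII-low. In both groups array 20442 was the highest, and the difference was -0.04 (95% interval -0.60 to 0.52). A RefSeq probe of Bmpr2 gave -0.35. The activin receptors Acvr2a and Acvr2b were at -0.08 each. That Acvr2a probe names no RefSeq mRNA, and the brightest that does, well above background on 6 of 8 arrays, gave 0.15.

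Among type I receptors, Acvrl1 and Tgfbr1 lay higher in every MHCII-high array by their brightest probes, without passing. Acvrl1, or ALK1, the partner of endoglin for BMP9, read 3.59, 3.57, 3.80 and 3.89 in MHCII-high and 3.28, 2.85, 3.15 and 3.27 in MHCII-low. The gap between the groups was narrow against a difference of 0.57 (SE 0.16, limma adjusted p = 0.0828), which a second Acvrl1 probe gave as 0.58. It passed with normexp (adjusted p = 0.0399). Tgfbr1, or ALK5, the type I receptor of TGF-beta, ranged from 2.70 to 2.86 in MHCII-high and from 1.71 to 2.58 in MHCII-low. The difference was 0.53 (limma adjusted p = 0.205). The groups overlapped on a second RefSeq probe of Tgfbr1, at 0.32 (probe-level limma adjusted p = 0.622). They also overlapped on a dimmer probe without a RefSeq mRNA, at 1.08 (probe-level adjusted p = 0.305). Acvr1b, the activin receptor ALK4, was at 0.14, Acvr1 at -0.22, Bmpr1b at -0.10 and Bmpr1a, with 3 MHCII-high arrays above background, at -0.66 (95% interval -1.93 to 0.62).

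**Figure D4:**
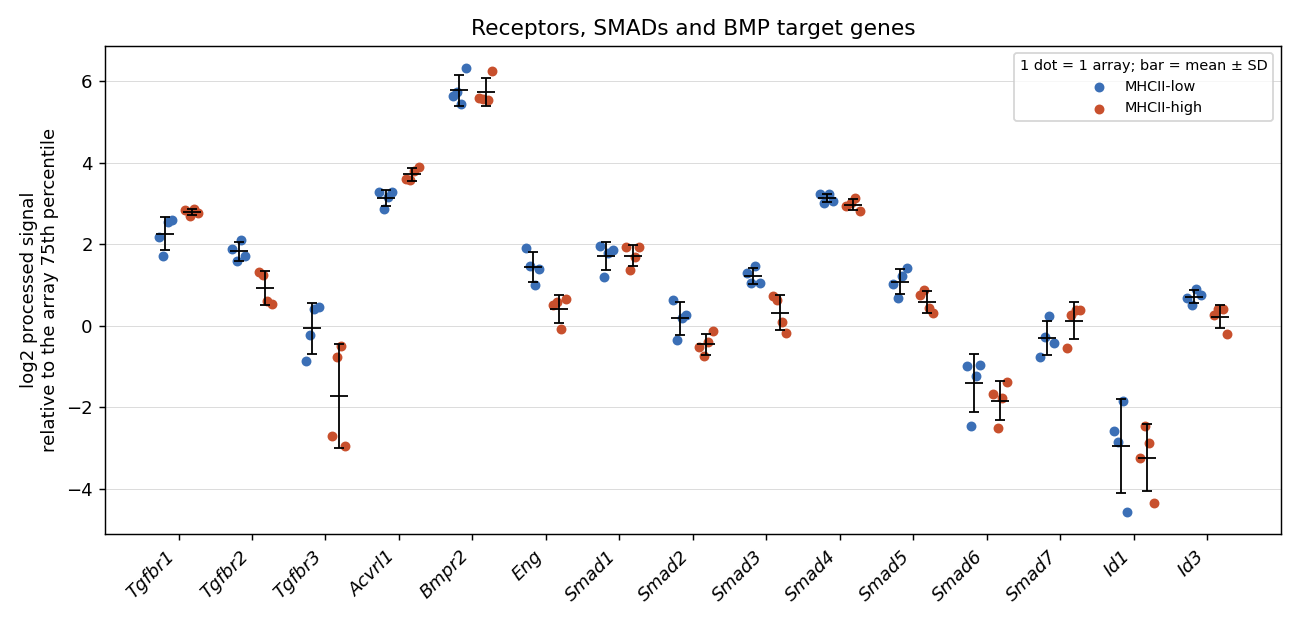
Log2 signal relative to the 75th percentile of the array for receptors, SMADs and the target genes Id1 and Id3, 1 dot per array and bars for mean ± SD of 4 arrays. MHCII-low (blue) lies above MHCII-high (red) without overlap for Tgfbr2, Eng, Smad3 and Id3 and below it for Tgfbr1 and Acvrl1, and of these Eng passed the threshold.

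No SMAD gene passed in limma (0 of 7 tested, 3 of them with an unadjusted p under 0.05: Smad2, Smad3 and Smad5). The share of all genes at that unadjusted cut was not taken, so the 3 are not read as a result about SMADs. Smad3, the SMAD that binds DNA for TGF-beta and activin, ranged from -0.17 to 0.73 in MHCII-high and from 1.04 to 1.47 in MHCII-low, a difference of -0.90 (SE 0.23, limma adjusted p = 0.067). The groups did not overlap, and a second Smad3 probe gave -1.01. With normexp Smad3 passed (adjusted p = 0.0402), as it did with a filter on all 8 arrays and with the mean over its probes. With the row as a block the difference was -0.74 (adjusted p = 0.222). Smad2, its partner in the same branch, was at -0.64 (limma adjusted p = 0.173), while a second Smad2 probe gave -0.11. Smad1, which BMP receptors phosphorylate, read 1.93, 1.36, 1.68 and 1.92 in MHCII-high and 1.96, 1.20, 1.79 and 1.86 in MHCII-low. Array 20436 was the lowest in both groups, and the difference was 0.017 (95% interval -0.48 to 0.51). Smad5, which also serves BMP receptors, was at -0.49 (limma adjusted p = 0.236). A test of the difference between the branches was not run.

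Smad4, the partner shared by both branches, read 2.93, 3.0, 3.13 and 2.81 in MHCII-high and 3.23, 3.02, 3.22 and 3.07 in MHCII-low. These ranges overlapped, and the difference of -0.17 had a 95% interval of -0.48 to 0.14. Smad7, a feedback inhibitor induced by TGF-beta, read -0.54, 0.26, 0.38 and 0.40 in MHCII-high and -0.77, -0.27, 0.23 and -0.42 in MHCII-low. MHCII-high 20435 lay below the rest of its group, and the difference was 0.43 (95% interval -0.21 to 1.08). Smad6, the inhibitor of the BMP branch, was at -0.42 (95% interval -1.29 to 0.44).

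Noggin, which binds BMP2, BMP4 and related ligands and blocks their receptor contacts, was the antagonist that changed. Nog read 0.50, 0.78, 0.84 and 1.02 in MHCII-high and -1.03, -1.15, -0.45 and -0.97 in MHCII-low. All MHCII-high arrays lay above all MHCII-low arrays, at 0.50 to 1.02 against -1.15 to -0.45. The means were 0.79 ± 0.21 (SD, n = 4) and -0.90 ± 0.31 (SD, n = 4), and Nog was 3.21-fold higher in MHCII-high (95% interval 2.36 to 4.38, limma adjusted p = 0.00419). With the row as a block the difference was 1.71 (adjusted p = 0.0234), and it was 1.66 and 1.75 within rows 1 and 2. Nog passed in 18 of 18 alternatives with a test, with adjusted p of 0.000895 to 0.0234. Across the same 8 arrays Nog was higher and Bmp2 lower, while Bmp4 overlapped between the groups (difference -0.71, limma adjusted p = 0.469). The Bmp2 call ended with the row as a block, and a relation between these genes was not tested.

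The other antagonists gave no call. Fstl1, a follistatin-like glycoprotein of mesenchyme, read 2.97, 3.42, 3.63 and 4.10 in MHCII-high and 2.81, 2.39, 3.31 and 2.24 in MHCII-low by its brightest probe, with a difference of 0.84 (SE 0.30, limma adjusted p = 0.169). That probe, at chr16:37799498-37799557, names no RefSeq mRNA, and the brighter of 2 Fstl1 probes that do, at chr16:37836492-37836551, gave -0.91. Their first 30 of 60 bases, both of the plus strand of mm9, are shown because the sign differs between them.
Fstl1 brightest probe: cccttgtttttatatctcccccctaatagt
Fstl1 RefSeq probe: gagtggttttgaaattgcatttgtatttgc
The RefSeq probe read -2.60, -0.18, 0.91 and -0.91 in MHCII-high and -0.84, -0.17, 1.24 and 0.64 in MHCII-low (probe-level limma adjusted p = 0.538). Groups overlapped on both Fstl1 probes, and the remaining RefSeq probe gave -1.03. Chrd, chordin, which holds BMPs away from their receptors, was at 0.43 (limma adjusted p = 0.267) and Fstl3, an activin-binding protein, at -0.30 (adjusted p = 0.444).

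The BMP target genes did not pass (0 of 2 in limma, 1 with an unadjusted p under 0.05). Id3, an inhibitor of basic helix-loop-helix factors that BMP SMADs induce directly, read 0.26, 0.42, 0.41 and -0.19 in MHCII-high and 0.67, 0.52, 0.90 and 0.75 in MHCII-low. Its groups did not overlap by a small margin, and the difference was -0.49 (95% interval -0.90 to -0.08, limma adjusted p = 0.178). Id1, of the same family, was at -0.27 with an interval of -1.65 to 1.11.

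Beyond the 49 genes, 5 lists of the wider pathway were read in the same limma fit, by counts alone. Over all genes tested 2.62% were higher and 2.3% lower, and in lists of 13 to 25 genes a single call is already above either share, so the counts are given as descriptions. Among ligands and receptors outside the 49, 1 of 13 tested fell, the TGF-beta co-receptor Cd109 (difference -1.97, adjusted p = 0.0155), and 0 rose, with a median of -0.07. Among genes that anchor, process or release latent TGF-beta, 2 of 16 fell and 0 rose (median -0.29). Thbs1, the activator thrombospondin 1, was at -1.18 (adjusted p = 0.0163), and Emilin1, which keeps the TGF-beta precursor from being processed, at -1.20 (adjusted p = 0.0269). Thbs1 did not pass without MHCII-high 20439 (adjusted p = 0.0564). Emilin1 did not pass without that array (0.070) or without MHCII-low 20435, 20436 or 20442 (0.0766, 0.0631 and 0.055). Nrros, which holds latent TGF-beta1 on the surface of myeloid cells, was at 0.038. The integrin gene Itgb8 was well above background on 2 of 8 arrays and was not tested.

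SMAD co-factors and inhibitors had 1 of 25 higher and 1 lower (median -0.13). Runx3, a SMAD partner needed by several leukocyte lineages, rose by 1.15 (adjusted p = 0.0178), and Wwp1, a ubiquitin ligase that acts on the TGF-beta receptor and SMADs, fell by 1.37 (adjusted p = 0.0119). Of 13 BMP antagonists and co-receptors outside the 49, Crim1, a membrane protein that binds BMPs, fell by 1.14 (adjusted p = 0.0119), and 0 rose (median -0.16). Genes known to be induced by TGF-beta or BMP had 1 of 20 higher and 2 lower, with a median of -0.43. Itgae, the integrin chain CD103, was 16.9-fold higher in MHCII-high (adjusted p = 0.00424), and it is also among the dendritic cell markers, whose summed signal was higher there. Cdkn2b, a cell cycle inhibitor, fell by 1.56 (adjusted p = 0.0445).

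Of the wider pathway genes named here that passed, Itgae (adjusted p = 0.0208) and Wwp1 (0.0457) also passed with the row as a block. Cd109, Thbs1, Emilin1, Runx3, Crim1 and Cdkn2b did not, with adjusted p from 0.0579 for Crim1 to 0.135 for Cdkn2b. Cdkn2b passed without MHCII-high 20435 or 20439 and in no other fit that left out 1 array (adjusted p up to 0.107). Tgfbi, named for its induction by TGF-beta, was at 0.19 (adjusted p = 0.597), and Klf10, an early response gene, at -1.26 (adjusted p = 0.0533).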

How the data were processed

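The authors deposited 1 scanner file per array with linear intensity values from Agilent Feature Extraction 11.5.1.1, background-subtracted and detrended per the file headers; the version is also in the submitters' processing notes. Their deposited series table holds log2 values whose making is not given in the sources used here. Its columns correlated with the log2 processed signal of their own arrays at 0.998 or higher across probes, with medians of 9.38, so scale and direction were those of that signal.

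From 62976 spots per array, 3671 controls and 67 to 160 outlier spots were left out. Log2 signals were taken relative to the 75th percentile of the array. Genes were represented by their brightest probe well above background on at least 4 of 8 arrays and tested in limma 3.58.1 (R 4.3.3; lmFit, eBayes), two-sided, adjusted over 27999 genes. The number of arrays limits the precision. The script was tested on simulated data.

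Of 56605 probes, 43849 were named through RefSeq symbols of GRCm38.p6 and 12756 kept the name in the files. Probe coordinates are those of the files (mm9). Exons and UTRs of that build were not used here. Genes past the threshold, genes with a log2 difference of at least 1 and the gene with the brightest probe in each role are given array by array, and other pathway genes past the threshold by name, except 1 that is not reported here. Nrros, Itgb8, Tgfbi and Klf10 were named after their values were seen. The genes, lists and tests were chosen with earlier results of these data known. Alternatives were background correction (normexp, offset 50), scaling, the authors' table, filters, the choice of probe, blocks and leaving out each array. Choosing the brightest probe with a RefSeq mRNA and fitting single probes were added after the data were seen.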

Additional observations from a re-analysis of the deposited data

Results flagged for a closer look

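In 8 of the 90 groups of 4 arrays examined over the 45 genes, 1 array stood apart by Dixon's criterion, where chance flags about 1 in 20 groups. MHCII-low 20436 gave 3 of them: Bmp6 at 0.018 (nearest array -0.96), Ltbp3 at 0.99 (nearest 1.49) and Bmp7 at -5.37 (nearest -3.78). MHCII-low 20442 was the highest of its group for Tgfb1, at 4.71 (nearest 4.03). In MHCII-high, array 20442 was the highest for Bmpr2, at 6.26 (nearest 5.59), and for Acvr2a, at -2.33 (nearest -2.91). MHCII-high 20435 was the lowest for Smad7, at -0.54 (nearest 0.26), and MHCII-high 20436 for Chrd, at -2.10 (nearest -1.43). Of these 8, Bmp6 is the one past the threshold, and without MHCII-low 20436 its log2 difference was -2.82 (limma adjusted p = 0.0243).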

How the results depend on the processing

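None of the 6 genes past the threshold changed direction in any setting. The 1377 genes past the threshold became 456 with the slide row as a block, 817 with the replicate block and 548 to 1153 without 1 array. They were 548 and 778 without MHCII-high 20439 and 20442, and 719, 864, 805 and 831 without MHCII-low 20435, 20436, 20439 and 20442. Of the TGF-beta and BMP genes, 5 were lower and 1 higher. Normexp gave 8 and 2 (Tgfb2, Tgfbr2, Smad3 and Acvrl1 were added), no filter on dim probes gave 3 lower, the row block 1, the replicate block 2, and leaving out 1 array 2 to 3. The labels do not state whether equal numbers pair the arrays, and the main fit did not use the numbers. Deviations from the group means correlated between same-numbered arrays at 0.0836 to 0.21, 1 of 4 under 0.1. Between arrays of different numbers the correlations were -0.173 to 0.0761, and each array correlated best with its own number. With these numbers as a block (the replicate block), Tgfb3, Gdf15 and Eng did not pass (limma adjusted p 0.0657, 0.0584 and 0.051). A filter on all 8 arrays removed Bmp6 and added Tgfbr2 and Smad3. With the mean over the probes of a gene, Ltbp1 and Smad3 were added (limma adjusted p 0.00408 and 0.0436). With the brightest probe that names a RefSeq mRNA, Ltbp1 passed and Eng did not (adjusted p = 0.0503). The cause of these shifts was not tested. The median over the genes was -0.34 to -0.12 over all settings.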
